A study of Mus musculus with 18 samples.

Results

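The transcripts of 10 cytokine genes were followed across spleens of ICR mice, an outbred stock: Il1b, Tnf, Il6, Il10, Il18, Tgfb1, Ccl2, Ccl3, Ccl4 and Cxcl2. They were chosen by name, with earlier results of these data known, and all 10 were found among the 19320 uniquely named genes of the table. RNA sequencing of the spleen gave 18 libraries from mice aged 10 weeks, 3 in each of 6 groups. Control animals (Con) received neither agent. Alginate oligosaccharide (AOS), made by breaking down a seaweed polysaccharide, was given at a dose of 10 mg per kg in the A10 group. Streptozotocin, which kills pancreatic beta cells and thereby models type 1 diabetes, was given in the STZ group, and both agents in the STZ-A10 group. The other two groups were treated with STZ and then with gut microbiota of AOS-fed mice (A10-FMT) or of control mice (Con-FMT). The study describes males, a single dose of STZ and transplants of small intestine content pooled over the donors of a group, so that each transplant group represents a single pool. Transplanted animals without STZ are not part of the design, and the A10 and STZ-A10 arms are known here from the sample labels alone. Nothing in the labels says more than that the libraries of a group are separate samples, so the p-values measure the spread between these libraries.

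Cytokines are secreted proteins by which immune cells signal to each other. Interleukin-1 beta and interleukin-18 are made as inactive precursors that caspase-1 cuts within inflammasomes, whereas tumor necrosis factor is shed from the cell surface by the protease ADAM17, and all of them act through pathways that lead to the transcription factor NF-kappaB. Interleukin-10 and transforming growth factor beta 1 restrain macrophages and T cells, the latter being stored in a latent form, and the chemokines CCL2, CCL3, CCL4 and CXCL2 draw monocytes, T and NK cells, or neutrophils. In the spleen, macrophages and monocytes of the red pulp filter blood and are a main source of many of these proteins.

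Expression was given as RPKM, the reads per kilobase of a gene normalised for the mapped reads of its library, which allows levels to be set side by side between genes. By the mean over the 18 libraries, Tgfb1 was by far the most abundant member at 104 RPKM, followed by Il18 at 30.1, Il1b at 14.97 and Tnf at 5.89. The chemokines Ccl2, Ccl3 and Ccl4 lay close together at 2.55, 2.51 and 2.47 RPKM, and Il10, Cxcl2 and Il6 averaged 0.606, 0.239 and 0.208. Among all genes of the table Tgfb1 ranked 701 and Il6 ranked 14453 by mean level. Il6 and Cxcl2 were under 1 RPKM in 18 of 18 libraries, Il10 in 14, Ccl2 in 3 and Ccl4 in 1, and the other 5 members in 0. Only genes reaching 1 RPKM in 3 or more libraries were tested, 12905 in all with 8 of the members, so Il6 and Cxcl2 were not tested. Il10 reached that level only in libraries of A10 and STZ-A10, so it entered the tests through the groups given AOS.

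**Figure D1:**
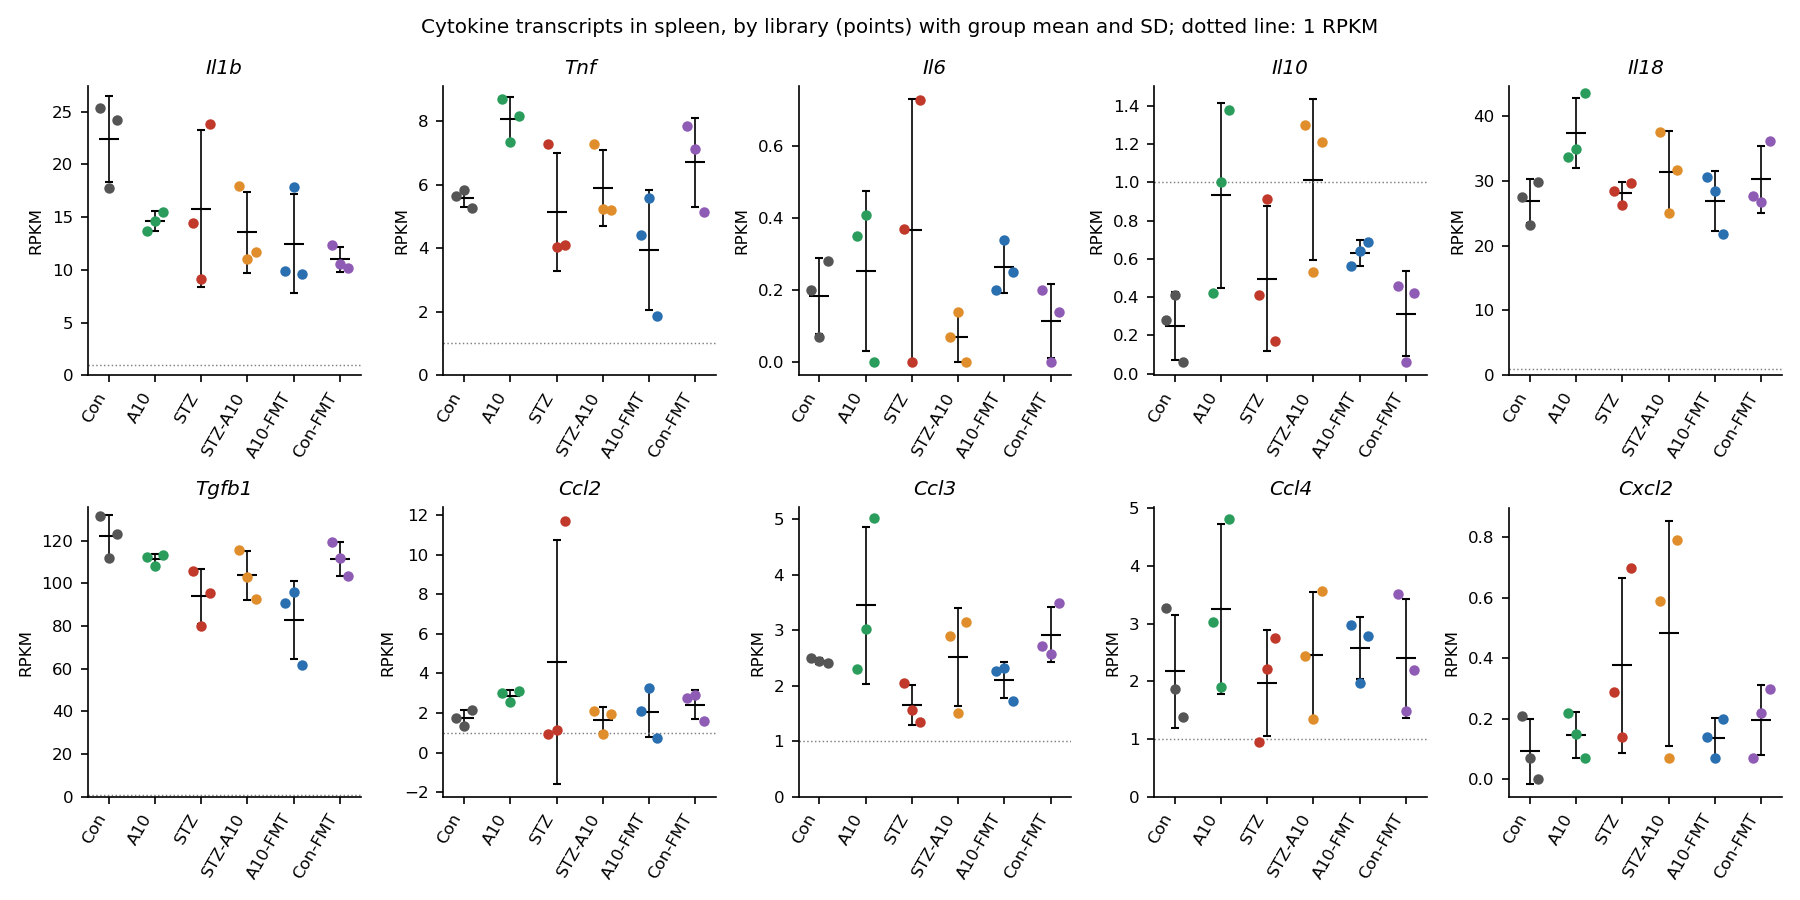
RPKM of each member (vertical axes, linear) in the 3 libraries of each of the 6 groups, with the group mean and SD as a bar and a dotted line at 1 RPKM. Tgfb1 sits between 61.8 and 132 RPKM, Il6 and Cxcl2 stay under the line everywhere, and a single STZ library of Ccl2 at 11.7 RPKM widens that group's SD below zero.

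Promoter sequence is shown for Tnf and Tgfb1, whose levels were most closely related among the members, and for Il6, whose mean RPKM was the lowest of the members. Each window holds the 150 bases before the RefSeq start site in GRCm38.p6, written 5′ to 3′ on the gene's strand, and capitals mark TATAAA or a match to the NF-kappaB consensus on either strand. The windows are chr17:35202008-35202157 on the minus strand for Tnf, chr7:25686852-25687001 on the plus strand for Tgfb1 and chr5:30012964-30013113 on the plus strand for Il6.
Tnf: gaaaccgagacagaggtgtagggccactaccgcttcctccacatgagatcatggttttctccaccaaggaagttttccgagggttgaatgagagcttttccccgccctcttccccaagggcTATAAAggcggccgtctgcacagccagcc
Tgfb1: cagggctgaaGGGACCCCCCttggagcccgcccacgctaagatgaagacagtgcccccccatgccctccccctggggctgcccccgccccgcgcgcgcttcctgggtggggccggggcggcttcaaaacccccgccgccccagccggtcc
Il6: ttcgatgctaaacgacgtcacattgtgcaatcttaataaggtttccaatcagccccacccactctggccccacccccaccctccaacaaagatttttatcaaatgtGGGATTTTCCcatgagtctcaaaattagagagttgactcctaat
The TATAAA of Tnf begins 29 bases before the start, a sequence that 12.4% of the 32851 mouse promoters searched over 250 bases hold. Matches to the NF-kappaB consensus begin 140 bases before the start of Tgfb1 and 44 before that of Il6, and 7.25% of promoters hold at least 1. G and C made up 75.2% of the 250 bases of Tgfb1, 57.6% of Tnf and 42.8% of Il6, beside a median of 52.4% over all promoters. Of the 10 members 7 had a promoter in the RefSeq table used here. The matches are letters in a window and were not compared with any binding data.

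No member passed the adjusted threshold of 0.05 (limma, Benjamini-Hochberg over all 12905 genes) in any of the 6 group pairs of the design, in the effect of STZ taken over both AOS states, in the interaction of STZ and AOS, or in the test of any difference among the 6 groups. STZ against Con compared spleens of mice with and without STZ, where effects of the drug and of diabetes cannot be told apart. It gave 0 of 8 members at the adjusted threshold, where 0.163% of all genes passed, and 1 at an unadjusted p under 0.05 (Tgfb1), where 11.1% of all genes did. A10 against Con, AOS without STZ, gave 0 and 2 members (Il10 and Il18), beside 0.00775% and 5.25% of genes. Of these, Il10 had passed the filter only through groups given AOS. STZ-A10 against STZ, AOS together with STZ, gave 0 and 0 members beside 0.00775% and 2.93%.

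Of the transplants, A10-FMT against STZ gave 0 and 0 members beside 0.00775% and 17.2% of genes, and Con-FMT against STZ gave 0 and 1 (Ccl3) beside 0.00775% and 5.24%. A10-FMT against Con-FMT, which compares the donors, gave 0 and 2 members (Tnf and Tgfb1) beside 0% and 23.6%. The effect of STZ over both AOS states gave 0 and 2 (Tgfb1 and Ccl3) beside 3.3% and 18.2%, the interaction 0 and 0 beside 0% and 2.86%, and the test among the 6 groups 0 and 3 (Tnf, Il10 and Tgfb1) beside 0.449% and 22.6%. The smallest adjusted p of a member was 0.204, for Tnf and Tgfb1 in A10-FMT against Con-FMT, leaving aside the last test, where it was 0.166 for Tgfb1.

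The median log2 difference of the 8 members was 0.43 in A10 against Con, where the median of all tested genes was 0.05, and 6 of the 8 lay above zero. It was -0.12 in STZ against Con beside -0.01 for all genes, 0.17 in STZ-A10 against STZ beside 0.03, and 0.15 in Con-FMT against STZ beside 0.00. In both comparisons of A10-FMT the whole distribution was shifted, by -0.15 against STZ and -0.17 against Con-FMT, and the members had medians of -0.13 and -0.20. Comparisons that share a group, such as the 3 against STZ, are not independent of each other. The 6 groups were also put in the order of their means for each tested member. Of the 40 pairs of neighbouring groups 0 differed at an unadjusted p under 0.05, the smallest p by limma being 0.0653 for Il1b between Con and STZ. Neighbours in an order taken from the same values differ least, so this bears only on the order of adjacent groups. Groups farther apart differed more, such as A10-FMT and Con in Tgfb1 (unadjusted p 0.00136, adjusted p 0.0820 by limma).

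**Figure D2:**
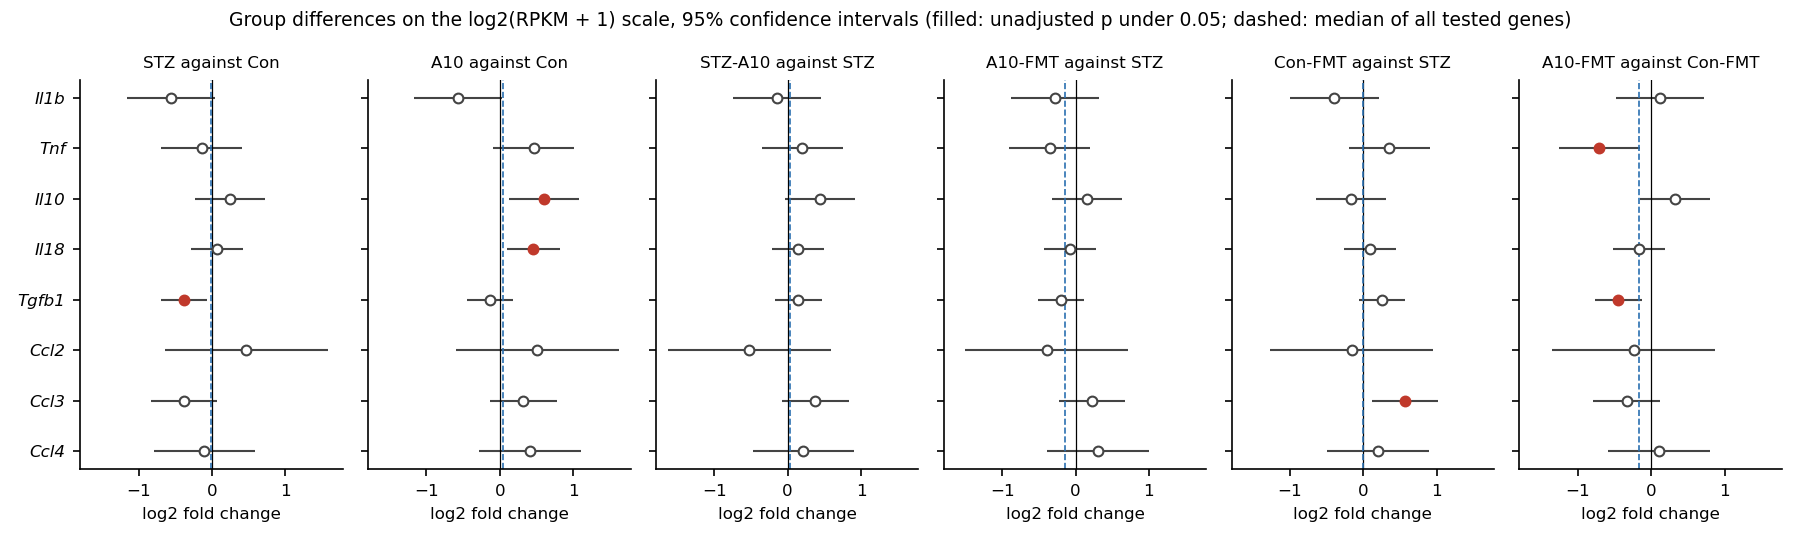
Log2 fold change on the log2(RPKM + 1) scale (horizontal axes) of the 8 tested members in the 6 group pairs, with 95% confidence intervals; filled points have an unadjusted p under 0.05, and the dashed line is the median of all 12905 tested genes. The intervals of Ccl2 are the widest, and in the last panel Tnf (-0.71) and Tgfb1 (-0.45) lie to the left of the shifted median of -0.17.

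Il1b (chromosome 2, 129364570 to 129371139, minus strand, GRCm38) encodes interleukin-1 beta, the cytokine of fever and of neutrophil recruitment. Its level was 25.3, 17.8 and 24.2 RPKM in the Con libraries, 13.7, 14.6 and 15.5 in A10, and 14.5, 9.10 and 23.8 in STZ. In STZ-A10 it was 17.99, 11.0 and 11.7, in A10-FMT 9.92, 17.9 and 9.64, and in Con-FMT 12.3, 10.5 and 10.1. Con therefore held the highest mean, 22.4 ± 4.07 RPKM (SD, n = 3), and Con-FMT the lowest, 11.0 ± 1.17, while the third STZ library and the second A10-FMT library overlapped Con. All A10 libraries lay under all Con libraries, as 4.81% of genes did, with a log2 fold change of -0.57 (95% confidence interval -1.17 to 0.03, adjusted p 0.988 by limma). For STZ against Con it was -0.56 (interval -1.16 to 0.04, adjusted p 0.507), -0.24 without the second STZ library and -0.89 without the third. The 10 mature neutrophil markers, all measured with a mean of at least 1 RPKM, summed to 10599, 2825 and 582 RPKM in Con and to 325 to 1220 in the other 15 libraries, so 1 of the 2 Con libraries highest in Il1b had a neutrophil sum within the range of the other groups. Their part in the level of Il1b was not tested.

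Tnf (chromosome 17, 35199381 to 35202007, minus strand) encodes tumor necrosis factor, which macrophages release early in inflammation and which B and T cells also make. It was 8.71, 7.34 and 8.16 RPKM in A10 and 5.63, 5.84 and 5.26 in Con, without overlap, as for 11.7% of genes in that direction, and the log2 fold change was 0.46 (interval -0.09 to 1.01, adjusted p 0.989 by limma). STZ had 7.27, 4.03 and 4.09 RPKM and STZ-A10 7.27, 5.23 and 5.19. The transplant groups had 4.41, 5.57 and 1.86 (A10-FMT) and 7.85, 7.11 and 5.15 (Con-FMT). The order of the group means ran from A10 (8.07 ± 0.689, SD, n = 3) to A10-FMT (3.95 ± 1.90), and the third A10-FMT library was the lowest of all 18.

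Between the transplants, Tnf was lower in A10-FMT by a log2 fold change of -0.71 (SE 0.259, unadjusted p 0.0154, adjusted p 0.204 by limma), and the libraries of the 2 groups overlapped. Without the third A10-FMT library the difference was -0.35 (unadjusted p 0.116 by limma), and without the second it was -0.95 (adjusted p 0.0351). In the fit without the second, 2625 of the 12905 genes passed, beside 0 with all libraries. The ends of the order, A10-FMT and A10, were compared after the values had been seen: the log2 fold change was -0.96 (adjusted p 0.0353), in a comparison in which 15.2% of all genes passed, 43% had an unadjusted p under 0.05 and the median gene shifted by -0.23. It was -0.60 (adjusted p 0.173) without the third A10-FMT library. That library also held the lowest sums of B cell markers (634 RPKM, beside 1548 to 2956 in the other 17), T cell markers (87.0 beside 202 to 454) and monocyte and macrophage markers (691 beside 1026 to 2054), with the highest share of globin transcripts (42.7%). In whole spleen, fewer cells of a type and less RNA per cell cannot be told apart.

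Il18 (chromosome 9, 50554827 to 50581840, plus strand) encodes interleukin-18, which prompts T and NK cells to make interferon gamma and which macrophages hold as a ready precursor. It was 33.6, 34.9 and 43.5 RPKM in A10 and 27.5, 23.2 and 29.9 in Con, without overlap, as for 11.7% of genes in that direction. The log2 fold change was 0.46 (SE 0.167, unadjusted p 0.0149, adjusted p 0.729 by limma). In STZ it was 28.4, 26.2 and 29.6 and in STZ-A10 37.5, 25.0 and 31.7. A10-FMT had 30.5, 28.4 and 21.8 RPKM and Con-FMT 27.7, 26.8 and 36.1, within the range of the STZ and STZ-A10 libraries but for the lowest of A10-FMT. Il18 was the steadiest member together with Tgfb1, its highest library being 2.0 times its lowest, against 2.13 times for Tgfb1 and 15.6 times for Ccl2.

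Il6 (chromosome 5, 30013114 to 30019981, plus strand) encodes interleukin-6, which drives the acute phase response. It was 0.20, 0.07 and 0.28 RPKM in Con, 0.35, 0.41 and 0 in A10, and 0.37, 0 and 0.73 in STZ. The values were 0.07, 0.14 and 0 in STZ-A10, 0.20, 0.34 and 0.25 in A10-FMT, and 0.20, 0 and 0.14 in Con-FMT, so that every group with a value above 0.4 also had a library listed at 0. From the step between low RPKM values, 1 library was estimated to hold 12790000 to 14640000 reads, and all Il6 values together then stand for about 55 reads, at most 11 in a library. The estimate took a length of 1.087 kb for Il6, where the longest annotated coding transcript has 2.343 kb, and a longer length gives more reads. Whether differences between groups could be detected at this depth was not tested.

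The regulatory cytokine Il10 (chromosome 1, 131019845 to 131024974, plus strand) was 0.28, 0.41 and 0.06 RPKM in Con and 0.42, 1.00 and 1.38 in A10, without overlap, as for 11.7% of genes in that direction. It was 0.41, 0.91 and 0.17 in STZ and 1.30, 0.53 and 1.21 in STZ-A10. The transplant groups had 0.56, 0.64 and 0.69 (A10-FMT) and 0.46, 0.06 and 0.42 (Con-FMT), again without overlap, as 5.35% of genes in that direction. These values rest on about 188 reads over the 18 libraries, 1 to 23 in each. The log2 fold change of A10 against Con was 0.61 (SE 0.225, unadjusted p 0.0161, adjusted p 0.741 by limma), that of STZ-A10 against STZ 0.43 (interval -0.04 to 0.91, adjusted p 0.996), and that of A10-FMT against Con-FMT 0.33 (interval -0.15 to 0.80, adjusted p 0.330).

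After these values had been seen, the 6 libraries of mice given AOS (A10 and STZ-A10) were set against the 6 without it (Con and STZ). Il10 was 0.42, 1.11 and 1.38 RPKM (lowest, median, highest) with AOS and 0.06, 0.345 and 0.91 without. The log2 difference was 0.52 (exact two-sided permutation test, p = 0.0152; adjusted p 0.613 by limma). Because Il10 reached 1 RPKM only in libraries with AOS, it was tested through the side found higher, and its result is no independent support. Il18 was 25.0, 34.2 and 43.5 RPKM with AOS and 23.2, 27.9 and 29.9 without, a difference of 0.30 (exact permutation p = 0.0325; adjusted p 0.837 by limma). Over all genes 0.00775% passed the adjusted threshold and 5.32% an unadjusted p under 0.05, while of the members 0 and 3 did (Il10, Il18 and Ccl3), all higher with AOS. At either STZ status, the 8 plasma cell markers summed to 1300 to 1628 RPKM in A10 beside 608 to 1143 in Con, and to 746 to 1313 in STZ-A10 beside 451 to 856 in STZ. Their part in the level of either cytokine was not tested.

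**Figure D3:**
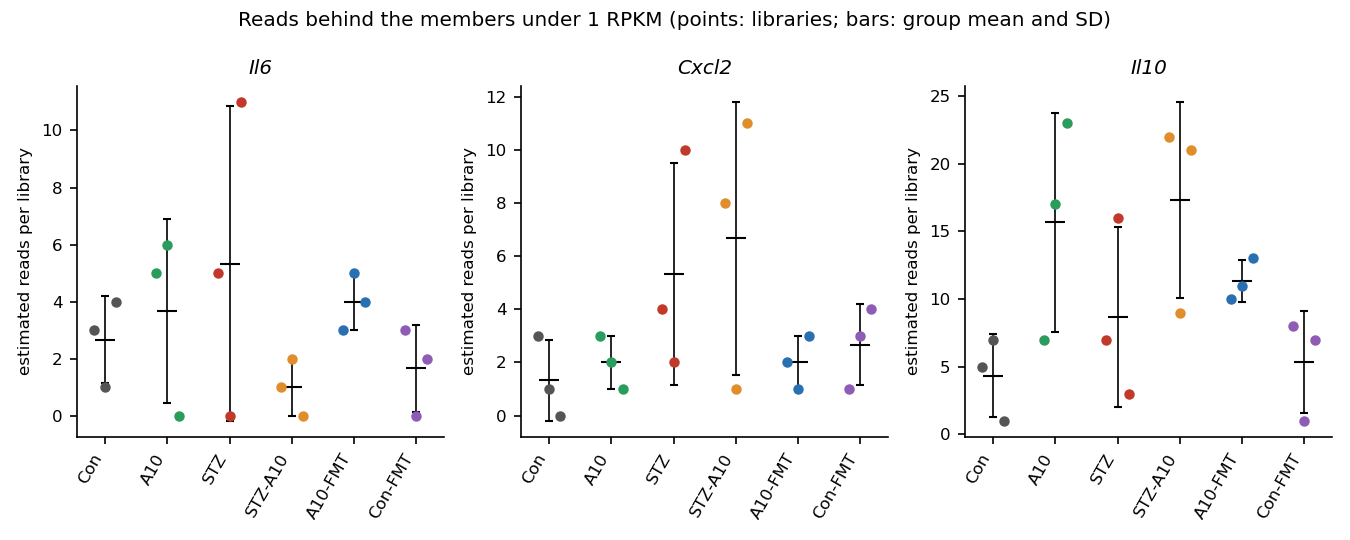
Estimated number of reads per library (vertical axes, linear) behind Il6, Cxcl2 and Il10 in the 6 groups, with group means and SD. Il6 and Cxcl2 rest on 0 to 11 reads a library, and Il10 on 1 to 23, with the higher values in A10 and STZ-A10.

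Tgfb1 (chromosome 7, 25687002 to 25705077, plus strand) encodes transforming growth factor beta 1, which platelets, macrophages and regulatory T cells store or secrete. It was 132, 112 and 123 RPKM in Con and 106, 80.1 and 95.7 in STZ, without overlap, as for 7.07% of genes in that direction. A10 held 112, 108 and 113 and STZ-A10 116, 103 and 92.8. The transplant groups held 90.7, 96.0 and 61.8 (A10-FMT) and 119, 112 and 104 (Con-FMT), again without overlap, as for 23.9% of genes. Con had the highest mean (122 ± 9.76, SD, n = 3) and A10-FMT the lowest (82.8 ± 18.4).

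The log2 fold change of Tgfb1 in STZ against Con was -0.38 (SE 0.149, unadjusted p 0.0204, adjusted p 0.313 by limma), and it ranged from -0.48 to -0.28 as single libraries were left out. Over both AOS states it was -0.24 (adjusted p 0.225 by limma), with a mean of 98.9 RPKM in the 6 libraries given STZ and 117 in the 6 without it (exact permutation p = 0.0173). In STZ-A10 against STZ it was 0.15 (interval -0.17 to 0.46), and in Con-FMT against STZ 0.25 (interval -0.06 to 0.57). A10-FMT against Con-FMT gave -0.45 (SE 0.149, unadjusted p 0.00849, adjusted p 0.204 by limma), -0.25 without the third A10-FMT library and -0.57 (adjusted p 0.0351) without the second. In that last fit 2625 of the 12905 genes passed. The 10 markers of monocytes and macrophages summed to 1505 to 1971 RPKM in Con and 1026 to 1317 in STZ, and the 10 markers of platelets and megakaryocytes to 843 to 2113 and 248.8 to 735. Both lists were thus lower in STZ, like Tgfb1, whereas the 10 red pulp macrophage markers summed to 681 to 883 in Con and 958 to 1011 in STZ, the opposite direction. Their part was not tested.

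The 3 CC chemokines lie on chromosome 11: Ccl2 at 82035571 to 82037453 (plus strand), Ccl3 at 83647844 to 83649355 (minus strand) and Ccl4 at 83662584 to 83664683 (plus strand). RefSeq also predicts a longer Ccl4 transcript whose span runs across Ccl3, and no strand-marking step is described for these libraries, so some reads of that neighbourhood may be shared. Ccl3 and Ccl4 draw T cells, NK cells and monocytes. Ccl3 was 2.49, 2.44 and 2.40 RPKM in Con, 2.05, 1.56 and 1.35 in STZ, and 2.30, 3.02 and 5.02 in A10. STZ-A10 had 2.90, 1.5 and 3.14, A10-FMT 2.26, 2.31 and 1.73 and Con-FMT 2.71, 2.57 and 3.48. STZ thus lay under Con without overlap, as for 7.07% of genes, and under Con-FMT without overlap, as for 6.94%. A10-FMT lay under Con-FMT without overlap, as for 23.9% of genes.

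For Ccl3 the log2 fold change was -0.38 in STZ against Con (interval -0.84 to 0.07, adjusted p 0.559 by limma). In Con-FMT against STZ it was 0.56 (SE 0.212, unadjusted p 0.0176, adjusted p 0.916), and in A10-FMT against STZ 0.23 (interval -0.22 to 0.68). Over both AOS states the effect of STZ was -0.36 (unadjusted p 0.0310, adjusted p 0.214 by limma; exact permutation p = 0.104), and -0.24 without the third A10 library, which held the highest value of all. Ccl4 was 3.27, 1.87 and 1.38 RPKM in Con, 3.03, 1.90 and 4.82 in A10, and 0.95, 2.22 and 2.75 in STZ. It was 2.44, 1.35 and 3.56 in STZ-A10, 2.97, 1.97 and 2.79 in A10-FMT, and 3.52, 1.48 and 2.19 in Con-FMT. All groups of Ccl4 overlapped each other in the 6 pairs, and no difference reached an unadjusted p under 0.05.

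Ccl2 encodes a chemokine that brings monocytes out of the bone marrow through CCR2. It was 1.72, 1.34 and 2.13 RPKM in Con, 2.99, 2.53 and 3.09 in A10, and 0.95, 1.12 and 11.7 in STZ. In STZ-A10 it was 2.10, 0.94 and 1.94, in A10-FMT 2.10, 3.27 and 0.75, and in Con-FMT 2.74, 2.92 and 1.59. The third STZ library alone carried the highest value, and the mean of STZ (4.59 ± 6.16, SD, n = 3) rested on it. With all libraries the log2 fold change in STZ against Con was 0.47 (interval -0.64 to 1.58, adjusted p 0.831 by limma), and without that library it was -0.42 (adjusted p 0.607). All A10 libraries lay above all Con libraries, as for 11.7% of genes, at 0.51 (interval -0.60 to 1.62, adjusted p 0.989).

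Cxcl2 (chromosome 5, 90903871 to 90905938, plus strand) encodes a chemokine for neutrophils. It was 0.21, 0.07 and 0 RPKM in Con, 0.22, 0.15 and 0.07 in A10, and 0.29, 0.14 and 0.70 in STZ. The values were 0.59, 0.07 and 0.79 in STZ-A10, 0.14, 0.07 and 0.20 in A10-FMT, and 0.07, 0.22 and 0.30 in Con-FMT. About 60 reads stand behind them in all, at most 11 in a library. Values above 0.5 RPKM were found in the third STZ library and in replicates 1 and 3 of STZ-A10. In the 6 libraries given STZ with or without AOS Cxcl2 averaged 0.43 RPKM, beside 0.12 in the 6 Con and A10 libraries (exact permutation p = 0.0563).

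Among 22 tested ligands of the same families, Ltb (231 RPKM over all libraries), Ccl5 (126) and Cxcl10 (17.1) were the most abundant. Of these 22, 2 passed the adjusted threshold (limma), both lower in the effect of STZ over both AOS states, where 3.3% of all genes passed. None passed in another comparison of the design. Ifng, interferon gamma, averaged 1.24 ± 0.605 RPKM in Con and 1.61 ± 0.326 in A10, against 0.500 ± 0.216 in STZ and 0.597 ± 0.291 in STZ-A10 (SD, n = 3 each). The log2 difference, -0.63 with an SE of 0.144, had an adjusted p of 0.0297 by limma. Ifng reached 1 RPKM only in Con and A10 libraries, with at most 0.68 in STZ and 0.90 in STZ-A10. It thus passed the filter through the side found higher, and its call is no independent support. Cxcl9, a chemokine that interferon gamma induces, averaged 9.70 ± 1.40 in Con, 18.1 ± 3.43 in A10, 7.81 ± 3.66 in STZ and 7.35 ± 1.05 in STZ-A10. Here the difference was -0.77 with an SE of 0.187 (adjusted p 0.0397). For Cxcl9 it was -0.35 in STZ against Con (adjusted p 0.718 by limma) and 0.82 in A10 against Con (adjusted p 0.657). The interaction of STZ and AOS was -0.83 (unadjusted p 0.041 by limma), so the difference rests in part on the high A10 libraries. The 10 NK cell markers, one of which is Ccl5, summed to 122 to 202 RPKM in the 6 STZ and STZ-A10 libraries and to 198 to 371 in Con and A10, and their part was not tested.

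Of the 17 receptors, where Il10ra (43.9 RPKM), Tgfbr2 (39.4) and Il10rb (39.3) led, Il1r1 rose in the same effect of STZ, in which 3.3% of all genes passed. Il1r1, the signalling receptor of interleukin-1, averaged 10.6 ± 1.41 RPKM in Con, 9.87 ± 0.609 in A10, 14.6 ± 2.72 in STZ and 13.3 ± 1.68 in STZ-A10, with an SE of 0.0936 on a log2 difference of 0.40 (adjusted p 0.0327 by limma). The median of the 17 receptors was -0.08, near the -0.02 of all genes.

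Among 22 NF-kappaB components and feedback genes, led by Zfp36l1 (99.1 RPKM), Nfkbia (92.3) and Zfp36 (89.8), only Ier3 passed in a comparison of the design. This early response gene averaged 4.43 ± 0.133 RPKM in Con and 3.68 ± 0.542 in A10, against 12.1 ± 2.68 in STZ and 9.96 ± 0.858 in STZ-A10. The effect of STZ was 1.24 (SE 0.119, adjusted p 0.000148 by limma), while Nfkbia, the NF-kappaB inhibitor that NF-kappaB itself induces, averaged 84.1 ± 15.1 in Con and 96.8 ± 24.6 in STZ and did not pass in these comparisons. In the STAT3 and interleukin-10 response (10 genes, led by Jak1 at 84.2, Ddit4 at 37.2 and Stat3 at 36.1) Ddit4, a stress-induced inhibitor of mTORC1, rose from 25.4 ± 7.95 in Con and 32.8 ± 2.48 in A10 to 44.4 ± 15.8 in STZ and 55.7 ± 7.59 in STZ-A10. The difference was 0.75 with an SE of 0.186 (adjusted p 0.0420 by limma). In the effect of STZ 1 of the 22 NF-kappaB genes and 1 of these 10 thus passed, beside 3.3% of all genes.

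In the 3 remaining lists 0 genes passed in a comparison of the design. They were 10 antagonists and decoys, led by Ackr1 (30.4 RPKM), Il18bp (16.01) and Sigirr (13.3), 16 genes of processing and release, led by Nrros (56.4), Casp1 (35.4) and Aim2 (31.1), and 15 genes of TGF-beta signalling, led by Tgfbi (40.7), Ctgf (28.4) and Tgif1 (22.05). By limma at an unadjusted p under 0.05 in the effect of STZ, 4 of 10, 3 of 16 and 2 of 15 of them passed, where 18.2% of all genes did. In A10-FMT against Con-FMT the medians of the 7 lists ran from -0.51 to -0.35, all below the shifted median of all genes, -0.17, and Casp1, the protease of pro-interleukin-1 beta and pro-interleukin-18, averaged 26.5 ± 10.1 RPKM in A10-FMT and 36.3 ± 1.69 in Con-FMT. These medians include the third A10-FMT library, whose median log2 value was the lowest of all 18 libraries.

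Over the 18 libraries, 28 pairs of tested members and the 8 relations of a member to the globin share were correlated on the log2(RPKM + 1) scale. Of these 36, 2 passed after adjustment. Tnf and Tgfb1 had a Pearson r of 0.819 (permutation p = 0.00022, adjusted 0.00792) and a Spearman rho of 0.736 (permutation p = 0.00057, adjusted 0.0205). The r was 0.63 without the 2 libraries farthest from the median of Tnf and 0.884 within groups. Il18 and Ccl3 had an r of 0.728 (permutation p = 0.00059, adjusted 0.0106), a rho of 0.604 (permutation p = 0.00904, adjusted 0.0814), an r of 0.544 without the 2 farthest libraries and 0.733 within groups. The globin share had an r of -0.59 with Tnf (adjusted permutation p 0.113) and -0.449 with Tgfb1 (adjusted permutation p 0.21). These permutations ask only whether r differs from 0, in libraries that share cell make-up. Tnf had a higher r, 0.96, with Rnaset2a, so the p-value does not single out its pair with Tgfb1.

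**Figure D4:**
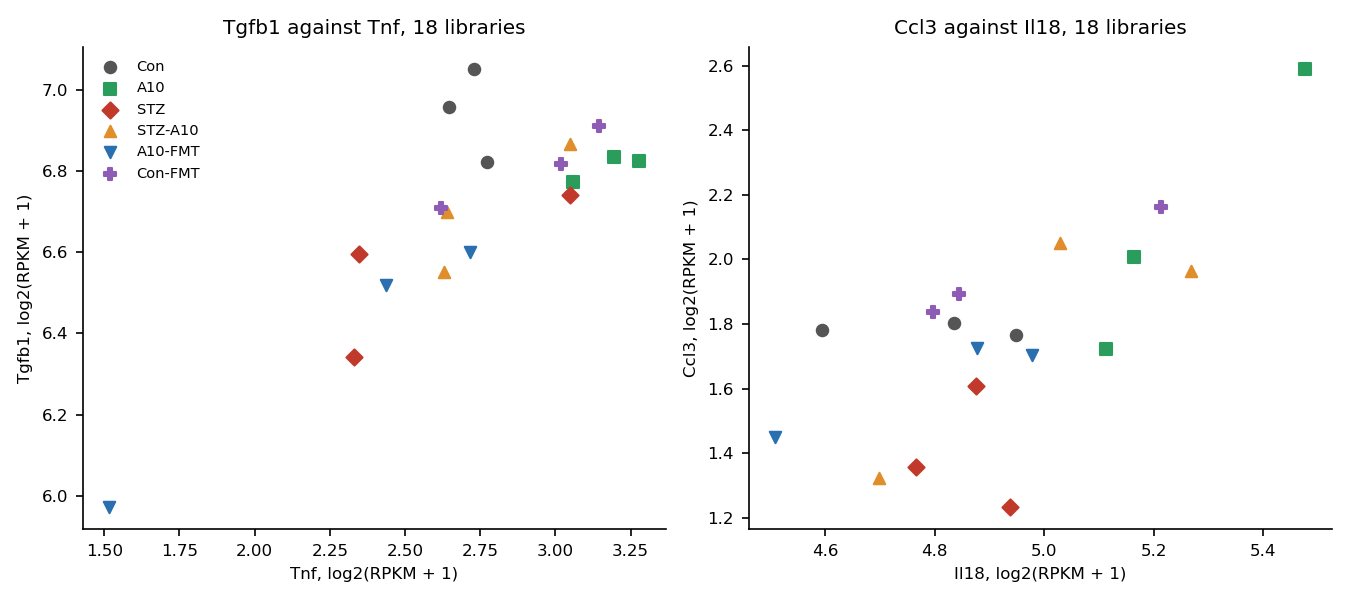
Tgfb1 against Tnf (left) and Ccl3 against Il18 (right), both axes on the log2(RPKM + 1) scale, 1 point per library with the group given by colour and shape. The third A10-FMT library lies at the lower left of the left panel, apart from the other 17, and the third A10 library at the upper right of the right panel.

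The tested genes whose levels were most like those of a member are given by Pearson's r over the 18 libraries, as a description across libraries that share depth and cell make-up. Il1b was most like Tex2 (0.79), Agps (0.78) and Arap3 (0.76), the lowest values of any abundant member. Tnf was most like Rnaset2a (0.96), Psmb8 (0.96) and Mgat1 (0.96), and Tgfb1 like Ncf4 (0.96), Ncf1 (0.96) and Diaph1 (0.95), where Ncf4 and Ncf1 encode subunits of the phagocyte NADPH oxidase and Psmb8 one of the immunoproteasome. Il18 was most like Tmem106a (0.87), P2ry13 (0.83) and Nr1h3 (0.83), and Ccl3 like Nr1h3 (0.82), Rrp7a (0.77) and BC005624 (0.76), so that Nr1h3, the oxysterol receptor LXR alpha of macrophages, stood in both. Ccl2 was most like Banp (0.86), Vps37b (0.82) and Nr4a3 (0.81). Ccl4 was most like Oas3 (0.78), Usp18 (0.78) and Herc6 (0.73), which are interferon-stimulated genes.

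The labelled tissue showed its markers. In the 18 libraries the B cell list summed to 634 to 2956 RPKM, the red pulp macrophage list to 623 to 1379 and the erythroid list to 73182 to 381410, and globin genes made up 10.4% to 42.7% of all RPKM. Transcripts of neighbouring or distant organs were present too. The exocrine pancreas list ranged from 24.2 to 23688 RPKM with its maximum in the second A10-FMT library, and the testis germ cell list reached 292 in the second Con library. Between any 2 libraries the log2 values correlated with r from 0.897 to 0.992.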

How the data were processed

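Spleen RNA was enriched with oligo(dT) and sequenced on an Illumina HiSeq by the authors, who mapped reads to reference genes and deposited RPKM values per gene. The study names SOAPaligner, and the submitters' processing notes list Bowtie 0.12.2 and mm10; the annotation is not given in the sources used here. Of 19326 lines, 6 with repeated names were left out. On the log2(RPKM + 1) scale, 1 limma model with a trend covered the 18 libraries and gave each group a coefficient (limma 3.58.1, R 4.3.3). It was fitted to 12905 genes that reached 1 RPKM in 3 or more libraries, with Benjamini-Hochberg adjustment and a threshold of 0.05. A fold change on this scale understates the change of low genes. Exact or 100000-draw permutation tests used SciPy 1.17.1; 3 libraries against 3 cannot go below p = 0.1. The test was checked on simulated data.

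The files hold no read counts. Depth was estimated from the step between low values of 1588 single-transcript genes, and the read numbers derived from it are given without intervals. The confidence intervals in the text come from the limma model and reflect the spread between libraries. Positions come from GENCODE M21 (GRCm38). Named genes are the members, the 3 most abundant and all called genes of each list, and the 3 genes most like each member. The members and lists were chosen with earlier results of these data known. The comparisons of AOS over both STZ states and of A10-FMT against A10 were added after the values were seen. Replicate numbers did not pair the libraries. Alternatives covered normalization, filter, pseudocount, trend, library weights, the replicate block and leaving out single libraries. The result of 1 listed gene is not reported here.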

Additional observations from a re-analysis of the deposited data

How the results depend on the processing

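The absence of member calls held in all comparisons of the design under quantile normalization, median centring, rescaling without globin genes, no filter, at least 1 RPKM in every library, a pseudocount of 0.1, no trend and fits of the compared groups. Library weights changed it. With array weights, whose estimation stopped before it converged (weights from 0.0462 to 424), the members called were 5 in STZ against Con, 4 in A10 against Con, 1 in STZ-A10 against STZ, 2 in A10-FMT against STZ, 4 in Con-FMT against STZ, 4 in A10-FMT against Con-FMT, 4 in the effect of STZ, 2 in the interaction, 3 in the effect of AOS, 5 in A10-FMT against A10 and 8 among the 6 groups. Weights estimated gene by gene, an alternative chosen after seeing the data, gave 3 in STZ against Con, 2 in A10 against Con, 2 in Con-FMT against STZ, 2 in A10-FMT against Con-FMT, 4 in the effect of STZ, 2 in the effect of AOS, 4 in A10-FMT against A10 and 5 among the 6 groups. Calls among all genes rose as well. Of the 12905 genes, array weights called from 1969 (interaction) to 12716 (among the 6 groups), with 8512 for A10-FMT against Con-FMT and 7828 for STZ against Con. Weights estimated gene by gene called from 4 (interaction) to 10069 (among the 6 groups), with 6068 and 3716 for the same 2 pairs. The member counts were not tested against these numbers. The cause of the change was not tested. In A10-FMT against A10, 1 member was called as reported, beside 1964 of 12905 genes. Quantile normalization, median centring, no filter and the fit of the 2 groups gave 0 members, beside 719, 582, 822 and 0 genes. With at least 1 RPKM in every library 2 were called, beside 1969 of 11068 genes. As single libraries were left out the count was 0 to 3, the 3 without the second A10-FMT library, where 5518 of 12905 genes passed. In A10-FMT against Con-FMT, leaving out single libraries gave 0 to 2, the 2 without the second A10-FMT library, where 2625 of 12905 genes passed. Ccl2 in STZ against Con was reversed to -0.42 without the third STZ library and reached 0.94 without the first, and Il10 in STZ-A10 against STZ to -0.16 with array weights and to -0.0026 with weights estimated gene by gene. The other member differences given with a value in the text kept their sign under each alternative run.

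With the replicate number as a block, the members called were 0 in each comparison of the design and 2 in A10-FMT against A10, beside 1748 of 12905 genes. The numbers did not pair the libraries: 14 of 45 pairs with the same number deviated together with r above 0.1, the median being 0.0441, and 9 of 18 libraries correlated best with their own number. The block changed no other call. Members under 1 RPKM are limited by depth, since by the estimate at most 11 reads a library stand behind Il6 and Cxcl2.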

Other observations

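Without the filter on low values, the 2 members that were not tested stayed past no adjusted threshold in limma. In the effect of STZ over both AOS states, Cxcl2 had a log2 difference of 0.33 (unadjusted p 0.0150, adjusted p 0.171), and Il6 one of -0.02 (adjusted p 0.967). In STZ-A10 against STZ, Il6 had -0.32 (interval -0.67 to 0.03, adjusted p 1.00).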
